A study of Mus musculus with 4 samples.

Results

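The cells described here were 112 barcodes of the library from injured mouse sciatic nerve, out of 2281 barcodes of that library that passed the filters and 12268 over the 4 libraries analysed. A barcode stands for the RNA captured with 1 bead in Drop-seq, usually that of 1 cell, and its level of a gene is a count of unique molecular identifiers (UMIs), each from 1 captured transcript. The cells were chosen on their own counts. A barcode was kept when Dlk1, Lrrc15, C1qtnf3, Wnt9a, Hs6st2 and Tgfb3 together gave at least 3 UMIs (the signature sum) and Col1a1 and Col1a2 together gave at least 3. It had to hold 0 UMIs of Mki67 and Top2a (dividing cells), Sox10 (Schwann cells), Pecam1 (endothelial cells), Ptprc (immune cells) and Wif1 (endoneurial mesenchymal cells). These 14 genes were therefore left out of every comparison across genes. The cells are called bridge-like after the tissue bridge that forms across a cut nerve, but that name stands for the rule alone, since position in the nerve was not measured and the library was made from nerve distal to the cut.

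The study profiled 4 groups of wild-type CD1 mice, with 1 library each. The injured library came from the distal sciatic nerve of adults, 3 days post-injury (3 DPI), after unilateral resection of the nerve. The uninjured library came from adult sciatic nerve. Both were passed over myelin removal beads. Neonatal sciatic nerve was taken at P3 to P4 for a library of FACS-sorted cells, with gates on a nuclear dye and a dead-cell dye, and at P2 to P3 for a library passed over the beads. How many animals went into a library is not stated in any source used here, and the cells of 1 library are not replicates of its condition. No test of a condition could therefore be made, and a condition and its library cannot be told apart.

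Peripheral nerve holds several layers of Pdgfra-positive mesenchymal cells. Endoneurial cells lie among the axons, perineurial cells wrap the fascicles, and epineurial cells form the outer sheath. After a nerve is cut, mesenchymal cells lay down matrix in and around the wound, and regrowing axons and migrating Schwann cells meet that matrix. Dlk1 is a paternally expressed transmembrane protein with EGF-like repeats that is abundant in fetal mesenchyme, and Lrrc15 is a leucine-rich repeat membrane protein known from activated fibroblasts. C1qtnf3 is a secreted protein of the C1q and TNF-related family, Wnt9a a Wnt ligand, Hs6st2 an enzyme that adds sulfate to heparan sulfate chains, and Tgfb3 a ligand of the TGF-beta family.

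The 4 libraries held between 2000 and 6200 barcodes and between 4513814 and 8123103 UMIs. Of these barcodes, between 1945 and 5736 per library had at least 200 genes and at most 10% mitochondrial UMIs. Pairs of libraries shared 0 to 3 barcode sequences, and 0 of those met the rule in both libraries. Drop-seq counts transcripts at their 3′ ends, so levels were not divided by gene length. They are given in CPM, the UMIs of a gene summed over a set of cells and scaled to 1000000 UMIs of that set, with an exact Poisson 95% interval. Shares of cells have an exact Clopper-Pearson 95% interval. Both intervals cover counting error only, and no CPM or share had a replicate.

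At 3 DPI, 211 barcodes had a signature sum of at least 3, and 210 of them had the collagen UMIs as well. The exclusions removed 98 of the 210. Mki67 or Top2a was present in 48, Wif1 in 37, Pecam1 in 31, Ptprc in 9 and Sox10 in 8, with overlaps. The 112 cells that remained had a median of 4576.5 UMIs (346 to 18496) and 2027.5 genes. The 759 Wif1-negative collagen-positive cells with a signature sum under 3, here called the other cells, had a median of 1712.0 UMIs. A sum over 6 sparse genes is reached more easily in a deep barcode, so depth moved with membership. Further sets of 3 DPI cells were used beside the other cells: 226 endoneurial cells, which held at least 1 Wif1 UMI (median 5138.5 UMIs), 208 epineurial cells, a subset of the other cells with at least 3 UMIs of Pi16, Dpp4 and Pcolce2 together (median 2133.5 UMIs), and 192 dividing collagen-positive cells (median 5004.5 UMIs).

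The label was checked against marker lists. Mesenchymal markers were present throughout, with Dcn in 98.2% of the bridge-like cells, Lum in 85.7% and Pdgfra in 58.0%. Dcn was also found in 65.9% and Pdgfra in 9.95% of 211 endothelial reference cells (median 3173.0 UMIs), which should lack them, and a share near these values can be free RNA in the droplet. Of the epineurial genes, Dpt was at an intermediate share, in 67.0% of bridge-like, 85.1% of epineurial and 36.7% of endoneurial cells. Pi16, with 36.6%, 96.2% and 47.8% in the same order, was below both, but it was among the genes that chose the epineurial cells. Summed, the 6 epineurial markers were at 1537 CPM in bridge-like, 885 in endoneurial, 3310 in the other and 7694 in epineurial cells. Against endoneurial cells, 3 of 5 compared were at least 2-fold higher and 0 lower, beside 4.95% and 6.45% of all genes. Comp, 1 of the 3, had 48 of its 86 UMIs in 1 cell. The endoneurial transcription factors were low, with Etv1 in 1.79% of bridge-like against 21.7% of endoneurial cells and Sox9 in 17.0% against 55.3%. Mest, which marks nerve bridge cells together with Dlk1, was in 38.4% of bridge-like cells, 19.6% of the other cells and 30.3% of the endothelial reference cells. Cldn5 and Cdh19 had 0 UMIs in the 112 cells. Genes of other cell types were still detected, with Plvap in 13.4%, Rgs5 in 18.8% and Lyz2 in 47.3% of them, against 15.5%, 16.8% and 47.3% of endoneurial cells. No caller for doublets was run.

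The 6 signature genes are described first, as the values that chose the cells. Tgfb3 was the most widely detected, in 73 of 112 cells (65.2%) at 368 CPM. Dlk1 was in 41 cells (36.6%) at 427 CPM, C1qtnf3 in 41 at 231 CPM, Hs6st2 in 39 (34.8%) at 130.3 CPM, Lrrc15 in 33 (29.5%) at 124 CPM and Wnt9a in 28 (25.0%) at 58.6 CPM. Dlk1 was the least evenly spread, with 54 of its 262 UMIs in 1 cell, whereas no cell held more than 4 UMIs of Hs6st2 or Wnt9a.

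The signature was seldom found whole in 1 cell. Of the 112 cells, 21 held UMIs of 1 signature gene, 49 of 2, 32 of 3, 10 of 4, and 0 of 5 or 6. Dlk1 and Lrrc15, which give the cells their name, were found together in 12 cells. Dlk1 without Lrrc15 was found in 29 cells, Lrrc15 without Dlk1 in 21 and neither in 50, of which 35 held Tgfb3. The signature sum had a median of 4 and a maximum of 66. Just inside the threshold, 38 cells had a sum of exactly 3, and just outside it 48 cells had a sum of 2, 131 a sum of 1 and 580 a sum of 0. The threshold of 3 UMIs thus did not fall at an empty value of the sum. Sums this small cannot show whether the cells on its 2 sides are of 1 kind or more.

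To ask whether the signature genes were found in the same cells without letting a gene choose its own cells, each gene was left out in turn and cells were chosen on the other 5. Each gene was then detected in a larger share of the chosen cells than of the cells not chosen. For Tgfb3 the shares were 42.6% (30.7 to 55.2) of 68 chosen cells and 15.7% (13.2 to 18.4) of 803 not chosen. C1qtnf3 was in 26.0% (17.6 to 36.0) against 5.03% (3.60 to 6.82), Wnt9a in 21.5% (14.1 to 30.5) against 2.75% (1.71 to 4.17), and Dlk1 in 20.2% (12.4 to 30.1) against 6.14% (4.56 to 8.06). Lrrc15 was in 20.2% (12.8 to 29.5) against 4.92% (3.51 to 6.69), and Hs6st2 in 18.9% (11.4 to 28.5) against 7.55% (5.80 to 9.64). CPM, which is scaled to the depth, was also higher in the chosen cells, with Dlk1 at 248 (207 to 296) against 87.2 (74.4 to 102) and C1qtnf3 at 176 (143 to 215) against 37.5 (29.2 to 47.4). For Hs6st2 the intervals overlapped, at 57.1 (37.9 to 82.5) against 48.4 (39.0 to 59.3) CPM.

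**Figure D1:**
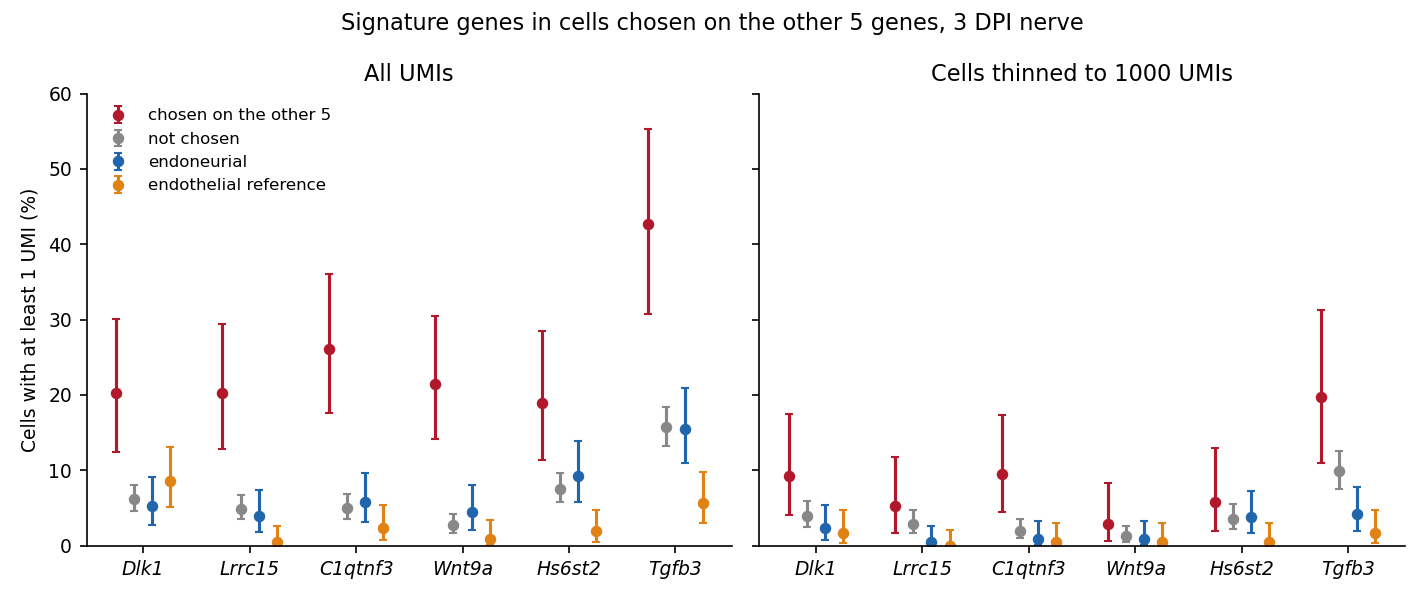
Each signature gene's share of cells with a UMI (%) in 3 DPI cells chosen on the other 5 genes, in cells not chosen, in endoneurial cells and in the endothelial reference cells. Points are shares and bars exact 95% intervals. On the left, with all UMIs, the chosen cells lie above the cells not chosen for all 6 genes, and on the right, with every cell thinned to 1000 UMIs, the gaps narrow and most intervals overlap.

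The gaps in the shares were smaller at equal depth. With each cell thinned to 1000 UMIs, the gap for Tgfb3 went from 27.0 to 9.84 percentage points, that for C1qtnf3 from 21.0 to 7.57 and that for Dlk1 from 14.1 to 5.36. Lrrc15 kept 2.29 points, Hs6st2 2.16 and Wnt9a 1.62. After thinning, C1qtnf3 alone had intervals of the chosen and the not chosen cells that did not overlap (4.47 to 17.4% against an upper bound of 3.55%). Detection in the endothelial reference cells differed between the genes, and free RNA, barcodes with more than 1 cell and the cells' own RNA were not told apart. The reference cells were also deeper, with a median of 3173.0 UMIs against 1712.0 in the other cells. Before thinning, the endothelial reference cells held Dlk1 in 8.53% (5.13 to 13.1), against the 6.14% of mesenchymal cells not chosen, with overlapping intervals, and Lrrc15 in 0.474% (0.0120 to 2.61).

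Cells that met the rule were counted in each library as a share of its Wif1-negative collagen-positive cells. The share was 12.9% (10.7 to 15.3) at 3 DPI and 1.95% (1.18 to 3.03) in the uninjured nerve, where 19 of 975 cells met it. It was higher in both neonatal libraries, at 43.2% (40.4 to 46.1) after FACS and 20.9% (19.4 to 22.6) after bead removal. The neonatal cells met it by other means: Dlk1 was in 99.2% and 99.4% of them and gave 93.4% and 95.8% of their signature UMIs, against 31.9% in the 112 cells at 3 DPI. With Dlk1 taken out of the signature the order turned, with 10.2% at 3 DPI, 6.02% in neonatal FACS, 1.44% in uninjured and 1.18% in neonatal bead cells. Lrrc15 was in 29.5% of the bridge-like cells and in 2.94% and 3.20% of the neonatal cells that met the rule, and 3 of the 4 Lrrc15 UMIs of the uninjured library lay in 1 such cell.

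**Figure D2:**
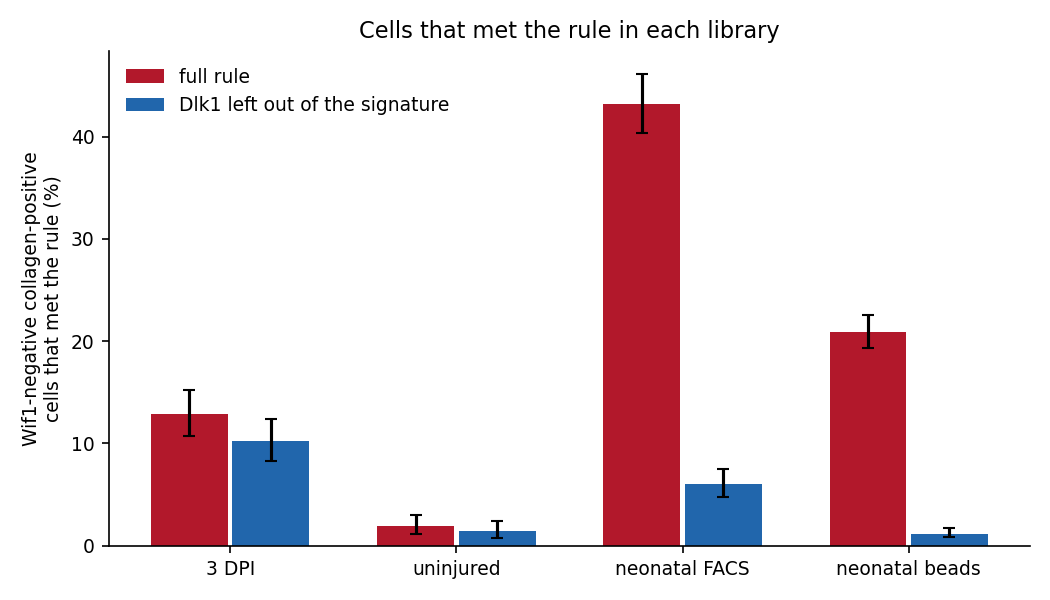
Share (%) of Wif1-negative collagen-positive cells that met the rule in each of the 4 libraries, under the full rule and with Dlk1 left out of the signature. Bars start at 0, error bars are exact 95% intervals for counting error, and each library is 1 sample. The neonatal libraries stand highest with Dlk1 (43.2% and 20.9%) and 3 DPI stands highest without it (10.2%).

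These shares depended on depth within every library. With cells thinned to 1000 UMIs before the rule was applied, 4.59% (3.28 to 6.22) met it at 3 DPI and 0.767% (0.282 to 1.66) without injury, while the neonatal libraries had 36.4% and 24.4%. Among cells with at least 3000 UMIs the shares were 30.3%, 3.33%, 71.1% and 66.9%. Wif1 removed different numbers of cells, 226 at 3 DPI and 12 in the uninjured nerve, where 24.6% of the Wif1-negative cells held at least 2 UMIs of endoneurial markers, against 5.93% of the other cells of 3 DPI, so the denominators differed in their layers. The share at 3 DPI exceeded that of the uninjured nerve under both choices, and the neonatal shares exceeded both adult ones.

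The bridge-like cells were then set beside the other collagen-positive cells of 3 DPI, from which the rule separated them by the signature sum alone. Several matrix genes and imprinted growth genes were higher in them, and several inflammatory and epineurial genes lower, while the matrix lists as a whole were mixed. Tnc, the matrix glycoprotein tenascin C, was at 1226 (1140.4 to 1317) against 334 (307 to 361) CPM, a ratio of 3.68 (3.30 to 4.10). Lox, which cross-links collagen, was at 2349 against 751 CPM, and Postn, the matricellular protein periostin, at 3665 against 1419.7. Over 3670 genes with a mean of at least 50 CPM, 53 were at least 2-fold higher in the bridge-like cells (1.44%) and 130 at least 2-fold lower (3.54%). The rule chose these cells from the same counts, so the numbers are a description and no test.

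Among the genes with the highest ratios were secreted and matrix proteins linked to wound repair. Wisp1, a CCN family matricellular protein, had a ratio of 5.44 (3.51 to 8.57) and was found in 31.2% of bridge-like and 3.69% of the other cells. Col12a1, a collagen that sits on the surface of fibrils, had 3.86 (3.30 to 4.53), and Ctgf, another CCN protein and a TGF-beta target, 3.44 (2.99 to 3.96). Rasl11b, a small GTPase of the Ras family, had 4.18 (2.68 to 6.59) and Fibin 4.10 (2.79 to 6.07). Gap43, a growth cone protein that Schwann cells also make, had 3.14 (2.17 to 4.55), but 17 of its 64 UMIs lay in 1 cell and its ratio turned below 1 when cells were thinned.

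The mast cell genes Mcpt4, Cpa3, Tpsb2 and Cma1 headed the list and came from very few barcodes. They had ratios of 36.0, 31.1, 30.0 and 21.4, with 352 of their 374 UMIs in 1 bridge-like cell. Without the barcodes that held at least 10 UMIs of these genes, 2 of them bridge-like, all 4 were lower in the bridge-like cells, at log2 ratios of -0.26, -1.45, -0.45 and -0.13. Whether those barcodes held more than 1 cell was not tested. Tnc, Lox, Postn, Col12a1, Ctgf, H19 and Wisp1 stayed at least 2-fold higher under every alternative choice of cells, depth and weighting that was tried.

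Genes with lower levels were partly those of other cell types. Ctss and Lyz2 of macrophages had ratios of 0.0986 (0.0559 to 0.162) and 0.180 (0.145 to 0.222), and Rgs5 of pericytes 0.172. Summed over whole marker lists, the 6 macrophage markers were at 174 CPM in bridge-like and 963 CPM in the other cells, the 6 Schwann markers at 140.1 and 584 CPM, and the 6 smooth muscle and pericyte markers at 334 and 1480.4 CPM. The most macrophage UMIs in 1 cell were 7 among the bridge-like and 242 among the other cells, so the other cells included barcodes with much RNA of these types. The part of that RNA in the lower genes was not tested, but against the epineurial cells, which held 216 CPM of the macrophage markers and 141 CPM of the pericyte markers, Rgs5, Sfrp5 and Spp1 were no longer lower. Ctss and Lyz2 were not 2-fold lower against the epineurial cells, nor with cells thinned before the choice.

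**Figure D3:**
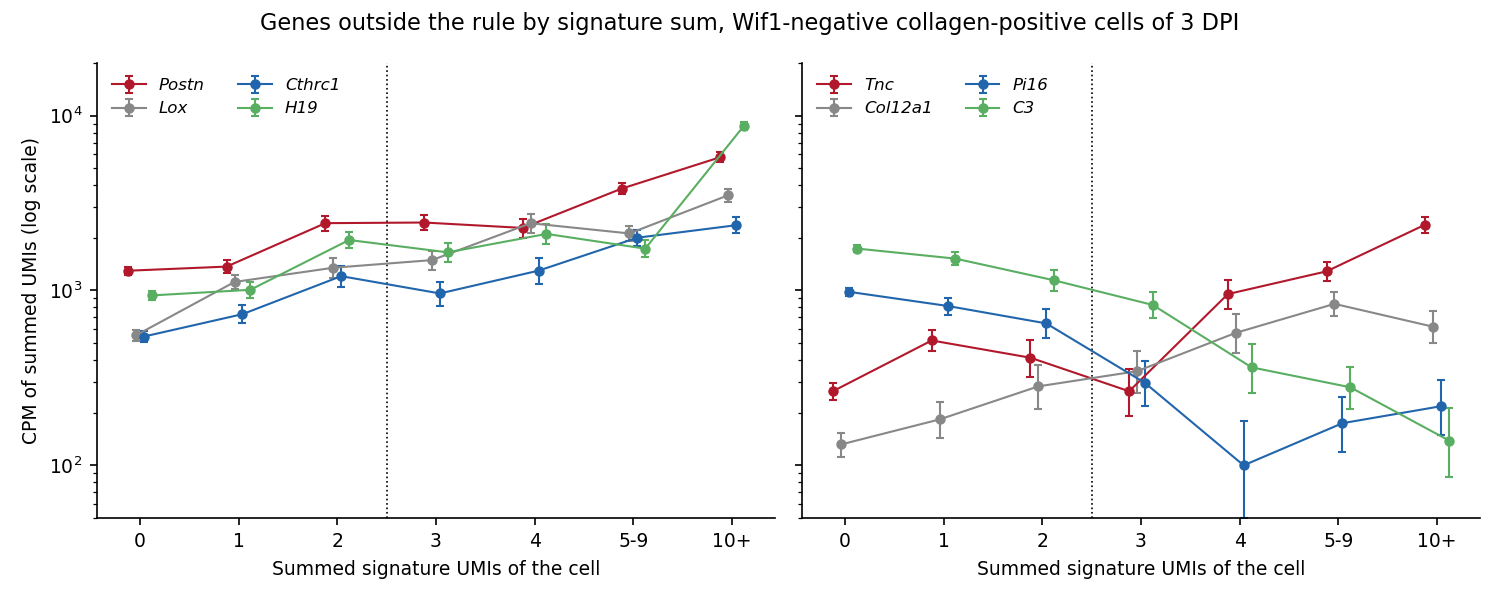
CPM (log axis) of 8 genes outside the rule in the 871 Wif1-negative collagen-positive cells of 3 DPI, binned by signature sum, with exact Poisson 95% intervals and the threshold as a dotted line. Postn, Lox, Cthrc1, H19, Tnc and Col12a1 are higher at high sums and Pi16 and C3 lower, with no step at the threshold for Postn (2425 CPM at a sum of 2 and 2446 at 3).

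Levels of most of these genes also differed between sums on the same side of the threshold. From a sum of 0 to a sum of 10 or more, Postn went from 1296 to 5782 CPM, Lox from 553 to 3501 and Cthrc1, a collagen triple helix repeat protein of activated fibroblasts, from 544 to 2360.3. H19, an imprinted non-coding RNA, went from 936 to 8742 CPM, but it stood between 1651 and 2105 CPM at sums of 2, 3 and 4 and at 1733 CPM at sums of 5 to 9, so values above 2105 CPM were found in the top bin alone. Tnc was at 517 CPM at a sum of 1, 412 at 2 and 265 at 3, the level of the cells with a sum of 0 (265 CPM), and above these values at sums of 4 or more, with 953 CPM at 4 and 2380.1 at 10 or more. Pi16, the epineurial marker, went from 982 to 218 CPM and C3, complement component 3, from 1736 to 138. The median depth went from 1526.5 to 6125.0 UMIs over the same bins, and depth and signature sum cannot be told apart by these values alone.

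The imprinted growth genes, a set of parentally imprinted genes that are abundant in fetal tissue, were described as a list. Of 13 members compared (Dlk1 itself left out), 5 were at least 2-fold higher and 0 lower, with a median log2 ratio of 0.63 against 0.03 for all genes compared. H19 had a ratio of 3.35 (3.15 to 3.57), Igf2, a fetal growth factor, 3.14 (2.39 to 4.11), Rian, a non-coding RNA of the Dlk1 locus, 2.29 (1.59 to 3.29), Cdkn1c, a cell cycle inhibitor, 2.16 (1.80 to 2.59) and Plagl1, a zinc finger transcription factor, 2.03 (1.62 to 2.54). Grb10, an adaptor of insulin and IGF receptors, stood at 1.85 and Meg3, the maternally expressed RNA of the Dlk1 locus, at 1.55, whereas Peg3 was at 0.923. Single cells carried much of this RNA, with 449 of 2155 H19 UMIs and 27 of 117 Igf2 UMIs in 1 cell each. When Dlk1 was taken out of the signature, 1 of 12 members was at least 2-fold higher, with a median of 0.43. That count and median were not set beside all genes under the same setting. Igf2, Rian, Cdkn1c and Plagl1 were then no longer past 2-fold. Those 4 calls thus depended on Dlk1 in the rule, but Igf2 alone ended under that setting only. Over all alternatives, the call of Rian ended under 2, Cdkn1c under 3 and Plagl1 under 6. Cdkn1c and Plagl1 were also under 2-fold against the epineurial cells and without the cell with the most UMIs of the gene.

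Matrix genes differed by class. Among 20 enzymes that process collagen, 3 were at least 2-fold higher and 0 lower, with a median log2 ratio of 0.47. These were Lox (3.13), its relative Loxl2 (2.22) and the lysyl hydroxylase Plod2 (2.06), while the collagen chaperone Serpinh1 stood at 1.46 and the prolyl hydroxylase subunit P4hb at 1.41. Of 27 glycoproteins and proteoglycans, 5 were higher: Tnc, Cilp (2.71), Cthrc1 (2.61), Postn (2.58) and the small proteoglycan Aspn (2.58). The lower ones were Spp1, the cytokine-like matrix protein osteopontin (0.357), and Nid2 of basement membranes. The collagens were divided, with Col12a1 and Col8a1 (2.17) higher and the basement membrane chains Col4a1 (0.297), Col4a2 (0.344), Col15a1 and Col18a1 lower among 16 compared. The fibrillar chain Col3a1 was nearly level, at 16649 against 15116 CPM. Plod2, Col8a1 and Loxl2 were under 2-fold with a signature sum of at least 2, and Cilp and Rasl11b without Tgfb3 in the signature. Against the epineurial cells Cilp, Col15a1, Col18a1 and Nid2 were not past 2-fold.

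Myofibroblast, contractile and secretory genes did not set the cells apart from the other cells at 2-fold. Of 10 myofibroblast and contractile genes 0 were past 2-fold in either direction. Acta2, the smooth muscle actin of myofibroblasts, was at 393 (345 to 445) CPM in bridge-like and 542 (509 to 578) CPM in the other cells, which also held the pericyte RNA given above, and 73 of its 241 UMIs in bridge-like cells lay in 1 cell. Against the epineurial cells as the comparison, 7 of 10 of these genes were at least 2-fold higher and 1 lower. The counts over all genes in that comparison are given with the alternatives below, and this list was not set beside a share of them. Of 25 genes of the secretory pathway 0 were past 2-fold, yet their median log2 ratio was 0.44. Of 13 TGF-beta targets, 2 were higher, among them Ctgf, and Pmepa1 stood at 1.99. Igfbp3, an IGF carrier protein, was higher at 2.58 (2.30 to 2.89), as were the metalloproteases Adam12 (2.65) and Adamts4 (2.50).

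The pathways of the signature genes themselves were mostly near the level of the other cells. Of 10 Wnt pathway genes 0 were at least 2-fold higher and 3 lower, the secreted antagonists Sfrp5 (0.0479 (0.0129 to 0.124)), Sfrp2 (0.481) and Dkk2 (0.473), of which Sfrp2 and Dkk2 were not past 2-fold with a signature sum of at least 5. Sfrp5 was not lower against the epineurial cells. The paper detected it in most perineurial and few adult epineurial cells, and the part of nerve layers in its ratio was not tested. Of 5 heparan sulfate enzymes compared, 2 C1q and TNF-related genes and 3 Notch pathway genes, 0 were past 2-fold in either direction. The BMP and activin list had 1 of 10 higher, the ligand Tgfb2 (73.3 against 36.6 CPM), which lay at the threshold itself and was under 2-fold under 8 alternatives, and 1 lower. In the IGF list 1 of 6 was higher, Igfbp3. Matrix proteases and their inhibitors were divided, 2 higher and 1 lower of 20, the lower one being Plau, the urokinase plasminogen activator (0.376), which was not past 2-fold among cells of at least 3000 UMIs. Of 10 axon guidance and trophic genes Ncam1 alone was past 2-fold, at 2.85 (2.01 to 4.05), and of 8 interferon genes 1 was lower. Genes of glycolysis and hypoxia (7), of skeleton, cartilage and tendon (5) and of the cell cycle outside the rule (3) had 0 past 2-fold.

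Of 16 inflammatory genes 6 were at least 2-fold lower and 0 higher, with a median log2 ratio of -0.77. C3 was at 404 (355 to 457) against 1633 (1574 to 1693) CPM and the eosinophil chemokine Ccl11 at 97.7 against 394. Of the epineurial markers, Pi16 (0.223), Pcolce2 (0.275) and Ly6c1 were at least 2-fold lower and 3 were not, and Ly6c1 was not either with a signature sum of at least 2. The pan-mesenchymal genes Dcn and Pdgfra were lower by less than 2-fold, at 0.670 and 0.655. Ribosomal protein genes (0 of 17 past 2-fold) and genes induced by dissociation (1 higher and 1 lower of 15) did not separate the sets.

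Beside the endoneurial cells of the same library, whose depth was near their own, the bridge-like cells differed in many more genes. Of 3579 compared, 177 were at least 2-fold higher (4.95%) and 231 lower (6.45%). Several matrix genes were among the higher ones. Postn was at 3665 (3515 to 3819) against 586 (545 to 629) CPM, Aspn at 1391 against 177, Cilp, a matrix protein of cartilage and tendon, at 849 against 108, and Col12a1 at 606 against 87.8. Their ratios were 6.25 (5.76 to 6.80), 7.85 (6.78 to 9.12), 7.87 (6.52 to 9.56) and 6.90 (5.58 to 8.59).

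Further genes higher than in endoneurial cells were Mfap4, a microfibril protein (6.46, 4.96 to 8.48), Ptn, the heparin-binding growth factor pleiotrophin (6.53, 4.67 to 9.27), Ncam1, a neural cell adhesion molecule (6.85, 4.15 to 11.8), Wisp1 (6.90, 4.07 to 12.2), Tes (7.76, 4.55 to 13.9) and Gap43 (9.02, 5.09 to 17.1), which was not past 2-fold when cells were thinned before or after the choice. Comp, a matrix protein of tendon and epineurial cells, had 10.1 (6.03 to 17.9), but 48 of its 86 UMIs lay in 1 cell, and it turned lower than in endoneurial cells with a signature sum of at least 5 or without Tgfb3. The mast cell genes were high here too, from the same few barcodes. Lox had a ratio of 6.06 (5.47 to 6.72), Tnc 5.17 (4.52 to 5.92) and Igfbp3 4.67 (4.03 to 5.43).

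Among the genes lower than in endoneurial cells, Trf, the iron carrier transferrin, was at 70.0 (50.7 to 94.3) against 2577 (2491 to 2666) CPM and Spp1 at 718 against 8000.3. Epyc and Matn4, matrix proteins of cartilage, had 7 and 5 UMIs in the bridge-like and 786 and 443 in the endoneurial cells. Tenm2, a teneurin adhesion protein, had 1 UMI against 337, at a ratio of 0.00628 (0.000158 to 0.0352). Cst6, Nipal1, Saa1, Reln and Col28a1 were lower as well, with 1 to 5 UMIs each in the 112 cells.

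By list, 6 of 12 imprinted growth genes were at least 2-fold higher here also and 1 lower (Dcn), with a median log2 ratio of 1.03 against 0.10 for all genes. Cdkn1c had 4.27 (3.36 to 5.45), Grb10 3.70 (3.15 to 4.36), Igf2 3.34 (2.48 to 4.54), H19 2.37 (2.22 to 2.52), Mest 2.21 (1.81 to 2.69) and Igf2r, the receptor that clears IGF2, 2.15 (1.66 to 2.79). Without Dlk1 in the signature 5 of 12 were higher, a count not set beside all genes under that setting, and Igf2 was not among the 5. Without the deepest 5% of barcodes H19, Mest and Igf2r were under 2-fold and Dcn was no longer 2-fold lower. Glycoproteins were split, 11 higher and 7 lower of 29, with Thbs2 at 4.21 and the lower ones led by Spp1 (0.0898), Thbs4 (0.103) and Fbn2 (0.265). Cthrc1 did not differ by 2-fold, at 1689 against 1411 CPM.

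Of 10 myofibroblast and contractile genes 4 were higher than in endoneurial cells and 0 lower. They were the integrin Itgb5 (4.81, 3.07 to 7.73), the cadherin Cdh11 (2.06, 1.60 to 2.67), Cnn2 (2.81, 2.17 to 3.64) and Fhl2 (3.09, 2.28 to 4.21). Fhl2 turned lower when cells were thinned before the choice. Cdh11 was under 2-fold under 6 alternatives, such as a signature sum of at least 5 or ratios divided by their median, and Cnn2 by the mean of each cell's CPM and with cells thinned after the choice. TGF-beta targets were 5 higher and 2 lower of 13, with Pmepa1 at 4.87 and Tgfbi at 0.149. Antagonists of BMP and activin were among the higher genes, with Chrdl1 at 4.84 (3.65 to 6.46) and Fst, follistatin, at 5.24 (3.94 to 7.04). The mesenchymal transcription factor Prrx1 had 3.05 (2.66 to 3.51). The chemokine Ccl2 and the protease inhibitor Timp1, both abundant in the endoneurial cells of this library, were lower, at 303 against 2038 CPM and 617 against 1894 CPM.

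Some secreted regulators differed from endoneurial cells as well. Of 9 Wnt pathway genes 4 were higher, the antagonists Sfrp1 (2.68), Sfrp2 (2.05) and Sfrp4 (2.46 (2.25 to 2.68)) and the ligand Wnt5a (2.26 (1.46 to 3.51)), and the receptor Fzd2 was lower (0.439). In the BMP and activin list 3 of 9 were higher, Chrdl1, Fst and the ligand Gdf10 (3.27 (2.52 to 4.25)), and Bmp7, a BMP ligand, was lower (0.0475 (0.0128 to 0.124)). Of these, Sfrp1, Sfrp2 and Wnt5a were not past 2-fold when cells were thinned before the choice, and Sfrp1, Sfrp4 and Gdf10 were not with a signature sum of at least 5. Sulf1, an extracellular sulfatase, was the 1 of 5 heparan sulfate genes that was higher (2.41 (1.86 to 3.12)), and Jag1 the 1 of 3 Notch genes (2.52 (1.75 to 3.63)), though not when cells were thinned after the choice. Among axon guidance and trophic genes, 3 of 13 were higher, Ptn, Ncam1 and the semaphorin Sema3c (2.63 (2.02 to 3.42)), and 4 lower, among them Reln and the ephrins Efnb1 (0.405) and Efnb2 (0.426). Sema3c was under 2-fold by the mean of each cell's CPM, Fzd2 was not past 2-fold by that mean or thinned, and Efnb2 was not with cells thinned after the choice. Proteases were 3 higher, among them Mmp23 (2.59), and 5 lower of 19, among them the cathepsins Ctsl (0.334) and Ctsb (0.338) and the inhibitor Timp3 (0.261). Inflammatory genes had 2 higher and 6 lower of 16, and skeletal, cartilage and tendon genes 1 higher and 3 lower of 7, with Col2a1, the cartilage collagen, at 0.0608 (0.0358 to 0.0969). Of 16 collagens 3 were higher and 5 lower, and of 20 collagen processing enzymes 3 were higher and 0 lower. The 25 secretory genes had 0 higher and 1 lower, the 17 ribosomal protein genes 0 past 2-fold, and the 14 dissociation genes 0 higher and 2 lower. Interferon genes (4, 1 higher), glycolysis and hypoxia genes (6, 1 higher and 1 lower), IGF genes (6, Igfbp3 higher) and cell cycle genes outside the rule (2, 1 higher) completed the lists.

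Against the 975 Wif1-negative collagen-positive cells of the uninjured nerve, taken whatever their signature sum, 441 of 3518 genes were at least 2-fold higher in the bridge-like cells (12.5%) and 336 lower (9.55%). Both sets are of adult nerve, but from different libraries, and the difference between them holds the injury, the library, the rule and the mixture of nerve layers together. The uninjured set still held endoneurial markers at 635 CPM and perineurial markers at 259.7 CPM, against 116 and 81.4 CPM in the bridge-like cells, and the part of these cells in the ratios was not tested. Tnc was nearly absent from the uninjured cells, with 17 UMIs (7.77 CPM) against 753 UMIs (1226 CPM), a ratio of 158 (97.9 to 272). Cthrc1 had 30.8 (25.5 to 37.5) and H19 was at 3509.9 against 176 CPM. Timp1 had 14.1 (11.2 to 17.8), Adam12 14.6 (8.97 to 24.8) and Inhba, the activin A subunit, 14.9 (9.19 to 25.3).

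The 112 cells were not alone in this. The other cells of 3 DPI held Tnc at 334 CPM, Cthrc1 at 648, Timp1 at 582 and Inhba at 96.7, all above the uninjured 7.77, 54.9, 43.9 and 9.60. Tes, Arl4c and Gap43 had 33.6 (15.4 to 86.8), 19.3 (10.3 to 39.2) and 17.5 (9.56 to 34.7), each with under 70 UMIs in bridge-like cells. Gm17541 and Gm5244, predicted genes whose reads may be shared with near-identical copies, stood at 16.3 and 15.2 and are uncertain. They were as high in the other cells of 3 DPI, at 294 and 179 CPM.

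**Figure D4:**
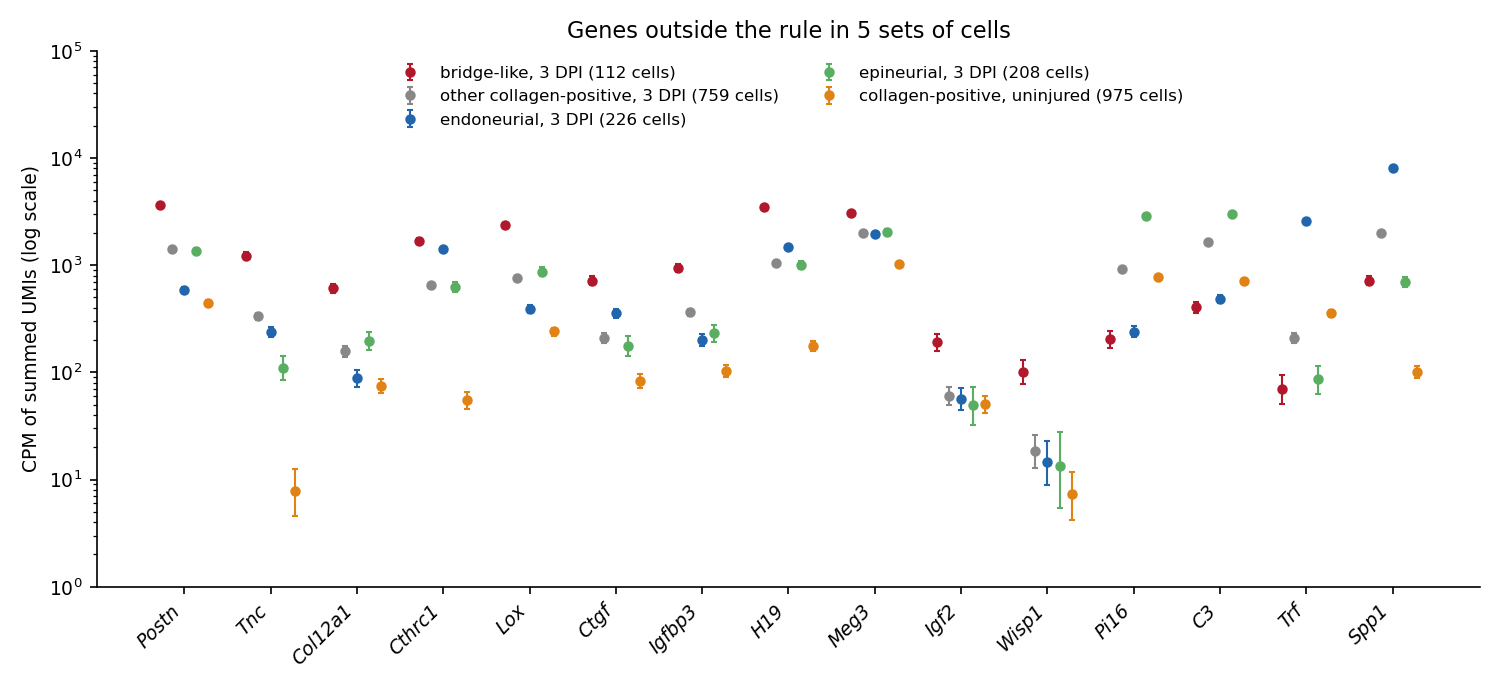
CPM (log axis) of 15 genes outside the rule in the bridge-like, other, endoneurial and epineurial cells of 3 DPI and in the collagen-positive cells of uninjured nerve, with exact Poisson 95% intervals. Bridge-like cells stand highest for Postn, Tnc, Col12a1, Cthrc1, Lox, Ctgf, Igfbp3, H19, Meg3, Igf2 and Wisp1, epineurial cells for Pi16 and C3, and endoneurial cells for Trf and Spp1. Pi16 was among the genes that chose the epineurial cells.

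By list, 8 of 20 collagen processing enzymes were at least 2-fold higher than in the uninjured cells and 0 lower, with a median log2 ratio of 0.75 against 0.21 for all genes. Lox had 9.76 (8.83 to 10.8), Plod2 5.95 (4.76 to 7.45) and Loxl2 4.40 (3.93 to 4.93). Of 29 glycoproteins 13 were higher, including Postn (8.20), Fbn2 (12.5) and Spp1 (7.11), and 6 lower, including Ecm1 (0.227). Imprinted growth genes were 8 higher and 1 lower of 12, at a median of 1.5, with Plagl1 at 7.12 (5.29 to 9.68), Grb10 at 4.89 (4.21 to 5.70), Rian at 4.51 (3.00 to 6.82) and Meg3 at 2.98 (2.81 to 3.17). Of 10 myofibroblast and contractile genes 5 were higher and 2 lower. Acta2 was at 393 against 514 CPM. The tropomyosin Tpm1, which was under 2-fold without the deepest 5% of barcodes, had a ratio of 2.23.

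For the remaining lists the counts against the uninjured cells were as follows. Of 16 collagens 6 were higher and 2 lower, and of 20 proteases and inhibitors 6 were higher and 3 lower, with the membrane-bound collagenase Mmp14 at 2.58 (2.31 to 2.88) besides Timp1 and Adam12. Among glycoproteins Fn1, fibronectin, was at 4531 against 1579 CPM, and the fibrillin Fbn1 at 2067 against 876. Against the uninjured cells with the epineurial genes alone, which held endoneurial markers at 136 CPM and perineurial markers at 64.4 CPM, Fn1, Fbn1, Fstl1, Igf1, Tgfb2 and C1qtnf2 were not past 2-fold. Of 13 TGF-beta targets 4 were higher and 3 lower, and of 9 BMP and activin genes 3 were higher, Inhba, Fstl1 (3.56) and Tgfb2, and 0 lower. Igf1 (2.32 (2.13 to 2.52)) and Igfbp3 (9.09) were the higher 2 of 6 IGF genes. Of 10 Wnt genes 0 were higher and 2 lower, Sfrp5 and Sfrp2 (0.282). C1qtnf6, a relative of the signature gene C1qtnf3, was higher (3.99 (3.11 to 5.11)) and C1qtnf2 lower (0.421), and the heparan sulfate polymerase Ext1 was higher (2.82 (2.15 to 3.68)). Of 11 axon guidance and trophic genes, 3 were higher, Ptn (2.73), Ncam1 (4.49) and Mdk, and 2 lower, with Sema3b at 0.122. Ptn, Ext1 and C1qtnf2 were not past 2-fold with cells thinned before the choice, and Mdk, a relative of Ptn, was not under 6 alternatives. Inflammatory genes had 3 higher and 4 lower of 12, glycolysis and hypoxia genes 3 higher and 1 lower of 6 (median log2 ratio 1.02), skeletal genes 2 higher and 2 lower of 5, with the transcription factor Runx1 at 4.87 (3.32 to 7.19), and secretory genes 2 higher and 1 lower of 25. Notch genes had 1 higher and 1 lower of 3, interferon genes 0 higher and 1 lower of 4, and the cell cycle list 1 higher of 1.

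Several lower genes moved with myelin and dissociation RNA of the uninjured library. Mbp, a myelin protein of Schwann cells, had 0 UMIs against 822, which puts it at least 76.9-fold lower when 3 UMIs are taken as the floor for the 112 cells. All Schwann markers together were at 140.1 CPM in bridge-like and 2567 CPM in the uninjured cells, and their part in these genes was not tested. Of 15 dissociation response genes 12 were lower and 1 higher, with Fos at 974 against 6955 CPM. The ribosomal protein genes went the other way, with 9 of 16 higher and 0 lower. Among mesenchymal genes, Dcn was at 6883 against 38617 CPM, Pi16 at 204 against 779.6 and Sfrp5, a secreted Wnt antagonist, at 6.51 (1.78 to 16.7) against 653 (619 to 687).

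The study was directed at growth factors that nerve mesenchymal cells could supply, so ligand genes were examined. The list of 143 ligands was drawn up by the study from rat nerve arrays and then filtered on single-cell data that included the 3 DPI library. It is therefore not independent of that library, and it is described by levels and counts alone. Of the 143, 126 had a UMI in the bridge-like cells and 101 were in at least 2% of them, or 52 when cells were thinned to 1000 UMIs. The highest level was that of Fstl1, a follistatin-like glycoprotein, at 6101 CPM. It was followed by Sfrp4, a secreted Wnt antagonist, at 1818 CPM, Igf1 at 1500.0, Ctgf at 718 and Rtn4 at 466. Sfrp1 (443), Tgfb3 (368, a gene of the rule), Mif (353), Nenf (322) and Gas6 (322) completed the highest 10. Of the ligands compared, 3 of 42 were at least 2-fold higher and 7 lower than in the other cells, where 1.44% and 3.54% of all genes were. Against endoneurial cells they were 14 and 10 of 40, beside 4.95% and 6.45% of all genes, and against uninjured cells 13 and 8 of 41, beside 12.5% and 9.55%. Fstl1, Sfrp4, Igf1 and Gas6 were at higher levels still in the epineurial cells, at 6743, 3197, 1719.6 and 518 CPM.

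Of the 101 ligands, 31 had their highest share of cells in the bridge-like set when it was set beside the endoneurial, epineurial and dividing cells, 20 their highest CPM, and 25 their highest share after thinning. The 101 were those in at least 2% of bridge-like cells, so a ligand entered through the set it was then ranked in. No such count was made over all genes, and these counts are a description only. The 12 that were highest by all 3 measures were Angpt2, Ccl25, Ctgf, Cxcl16, Igf2, Jag1, Pdgfc, Ptn, Sfrp1, Tgfb2, Wnt2 and the rule gene Tgfb3. Angpt2 and Ccl25 were sparse, at 14.7 and 11.4 CPM and each in 1.85% of bridge-like cells after thinning. Ctgf was in 64.3% of bridge-like, 45.1% of endoneurial and 18.3% of epineurial cells, and Ptn in 38.4%, 12.4% and 13.5%. Tgfb2, a further TGF-beta, was in 24.1% of bridge-like cells at 73.3 (53.5 to 98.1) CPM against 16.2 in endoneurial and 57.3 (38.7 to 81.8) in epineurial cells, where the intervals of bridge-like and epineurial cells overlapped. Wnt2 was at 63.5 (45.2 to 86.8), 11.6 (6.46 to 19.1) and 51.6 (34.0 to 75.1) CPM in the same order, with the same overlap. Jag1, a Notch ligand, was at 112 (87.4 to 142) CPM against 44.7 (33.9 to 57.7) in endoneurial cells. Ptn, Angpt2 and Cxcl16 were not highest among all mesenchymal cells of 3 DPI, since the other cells, which contain the epineurial set, held them at 295, 19.1 and 30.9 CPM against 236, 14.7 and 19.5.

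Hgf, the hepatocyte growth factor, was sparse but uneven between the sets. It was found in 13 of 112 bridge-like cells (11.6%) at 29.3 (17.4 to 46.3) CPM, in 1.33% of endoneurial cells at 2.31 (0.476 to 6.75) CPM and in 0.481% of epineurial cells at 1.91 (0.0484 to 10.6) CPM. It had 0 UMIs in the 211 endothelial reference cells, and a limit of 3 counts for a count of 0 allows a share of cells with a UMI of up to 1.42%, and was in 1.65% of 243 immune reference cells (median 1131 UMIs). After thinning to 1000 UMIs it remained in 0.926% of bridge-like cells, a level of about 1 cell, so the shares at equal depth do not separate the sets. Bdnf and Cxcl9 were in 1.79% and 1.79% of bridge-like cells, against 1.77% and 2.21% of endoneurial cells, with 2 and 4 UMIs in the 112 cells.

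The 112 cells differed among themselves along the genes of their name. The 29 cells with Dlk1 and without Lrrc15 had the highest levels of several imprinted growth genes. Igf2 was at 712 (574 to 873) CPM in them against 16.0 (1.94 to 57.8) in the 21 cells with Lrrc15 and without Dlk1 and 72.8 (43.8 to 114) in the 50 cells with neither. Plagl1 was at 557 (436 to 702) against 88.0 (43.9 to 157) and 126 (87.0 to 178) CPM, and Cdkn1c at 797 (651 to 967) against 136 (79.2 to 218) and 199 (149 to 261). Meg3 was at 5271 (4883 to 5682) against 1999.7 (1759 to 2264) and 2731 (2534 to 2939) CPM. These genes were chosen after their values were seen, the cells were split on rule genes, and no such split was counted over all genes. Igf2 was in 10 of the 29 cells, with 27 of its 92 UMIs in 1 cell. Grb10, from another imprinted locus, was nearly level at 743, 784 and 544 CPM.

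The cells with Lrrc15 and those with Dlk1 also differed in Postn, Tnc, Rasl11b and Acta2. Postn was at 5791 (5377 to 6229) CPM in cells with Lrrc15 alone against 3259 (2955 to 3585) in cells with Dlk1 alone, and Tnc at 2096 (1849.6 to 2365) against 503 (388 to 641). Rasl11b was at 240.0 (162 to 343) against 46.4 (17.0 to 101) CPM. In the Lrrc15 cells, 78 of 262 Tnc UMIs and 10 of 30 Rasl11b UMIs lay in 1 cell each. Acta2 was at 1159.8 (979 to 1365) against 77.4 (37.1 to 142) CPM, in 13 of 21 against 6 of 29 cells, but 73 of its 145 UMIs in the Lrrc15 cells lay in 1 cell. Dcn and C3 ran the other way, at 3287 against 8205 and 56.0 against 650.2 CPM. In the cells with Dlk1 alone, 298 of 1060 Dcn UMIs and 25 of 84 C3 UMIs lay in 1 cell each.

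**Figure D5:**
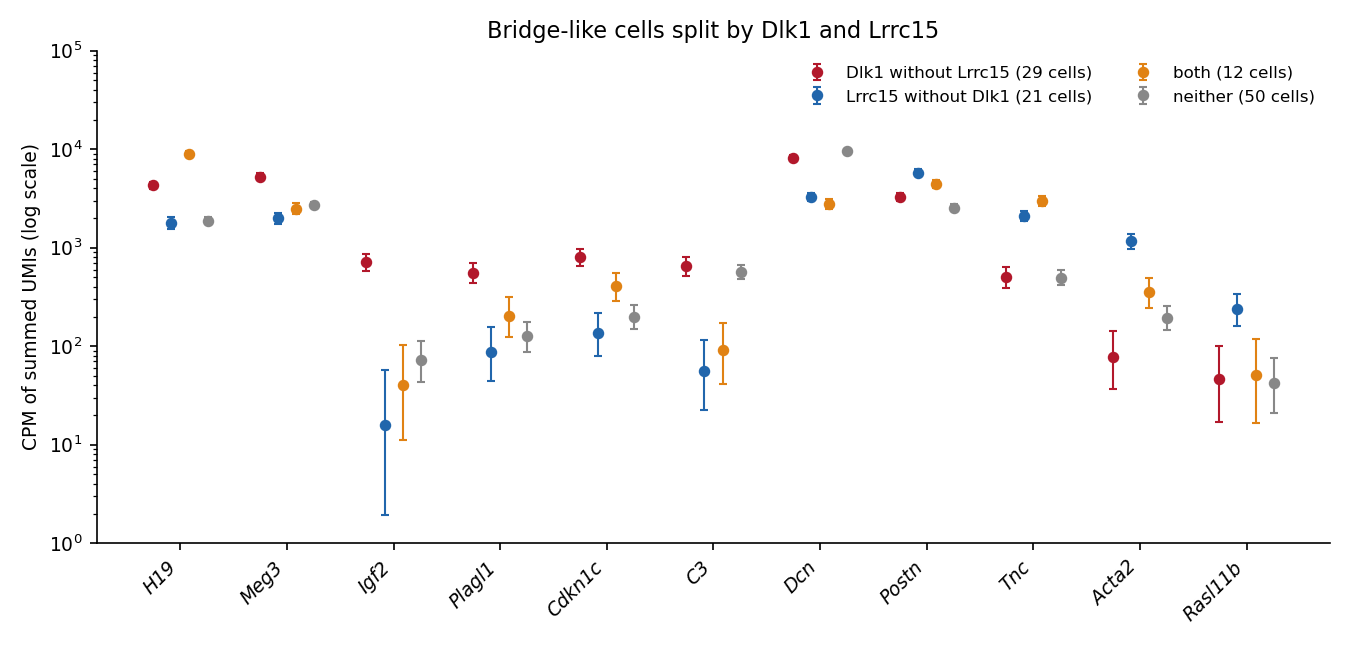
CPM (log axis) of 11 genes in the bridge-like cells split by Dlk1 and Lrrc15, with exact Poisson 95% intervals that cover counting error only. Igf2, Meg3, Plagl1 and Cdkn1c stand highest in the 29 cells with Dlk1 alone, Postn, Acta2 and Rasl11b in the 21 cells with Lrrc15 alone, and Tnc and H19 in the 12 cells with both.

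The 12 cells with both genes were deeper (median 7817.5 UMIs, against 4157.0 with Dlk1 alone and 5421.0 with Lrrc15 alone) and depended on single cells. H19 was at 8955 (8374 to 9565) CPM in them, with 449 of 884 UMIs in 1 cell, and Tnc at 2998 (2666 to 3360.1), with 158 of 296 UMIs in 1 cell. The 50 cells with neither gene were not devoid of the pattern, with Lox at 1866, Cthrc1 at 1245 and Col12a1 at 624 CPM. They stood highest for Cilp (1268 CPM), Sfrp4 (3406 CPM) and Col8a1 (1908 CPM). Absence of Dlk1 or Lrrc15 in a barcode is not absence from the cell at this depth.

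Whether the cells had more in common than the genes that chose them was described by matching each cell to the summed profiles of the sets, without the rule genes and without the cell itself, at 1000 UMIs per cell. Of 108 bridge-like cells deep enough, 72 (66.7%, 56.9 to 75.4) were nearest to the bridge-like profile, 12 to the epineurial, 11 to the rest of the other cells and 11 to the dividing profile, with 0 nearest to the endoneurial and 1 each to the endothelial and immune profiles. At 500 UMIs per cell the share nearest to their own profile was 60.4%. Of 360 other cells outside the epineurial set, 53 (14.7%, 11.2 to 18.8) were nearest to the bridge-like profile, as were 11 of 176 epineurial (6.25%) and 21 of 214 endoneurial cells (9.81%). Of the epineurial cells 84.7% and of the endoneurial cells 73.4% were nearest to their own profile, and the genes that chose the epineurial cells were kept in these profiles. The median bridge-like cell's correlation with its own profile was 0.00676 above that with the best other profile. The genes used are not replicates, so no test was made.

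Cells with the signature that the exclusions removed shared part of these levels. The 24 Wif1-positive cells with a signature sum of at least 3 held Postn at 1322 CPM, Lox at 1192, Tnc at 405 and H19 at 2255, each below the bridge-like levels. The 28 dividing cells with the signature held Dlk1 at 271 CPM, Lrrc15 at 117, Tnc at 569.7 and Postn at 1729. The 31 Pecam1-positive cells with the signature were deep barcodes (median 9381 UMIs) with Plvap at 1034 CPM and Postn at 2151 CPM. Plvap was in 12 of the 31 and Postn in 30, so both genes were in the same barcodes for a part of these cells.

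The 19 uninjured cells that met the rule (median 2659.0 UMIs) did so mainly through Tgfb3, which was in 13 of them and gave 42.9% of their signature UMIs. Dlk1 was in 5, C1qtnf3 and Wnt9a in 6 each, and Lrrc15 and Hs6st2 in 1 each. Beside the other uninjured cells they held more Col12a1 (9.25), Aspn (5.23) and Lox (3.20), with Cthrc1 at 2.77 and Tnc at 9.36, where the Tnc counts were 4 and 13 UMIs. Their levels were still below those of the 112 cells for Tnc, at 57.5 against 1226 CPM, and for Lox, at 718 against 2349, but not for Aspn, at 2428 against 1391.

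In the neonatal libraries, cells that met the rule were set beside the other Wif1-negative collagen-positive cells of their own library. H19 had ratios of 8.67 (FACS) and 8.21 (beads) against 3.35 at 3 DPI, Igf2 7.92 and 6.66 against 3.14, and Cthrc1 9.06 and 10.7 against 2.61. Gap43 was more than 2-fold higher in these libraries and at 3 DPI, but its 3 DPI ratio turned below 1 when cells were thinned. Lox, Col12a1, Aspn, Postn and Ctgf were also more than 2-fold higher in the neonatal libraries and at 3 DPI. Tnc was not, at 0.987 and 1.04 in the neonatal libraries against 3.68 at 3 DPI, and Wisp1 was at 2.15 and 1.80 against 5.44. The neonatal comparison cells held Schwann RNA, with Mbp at 6576 and 1762 CPM, and its part in these ratios was not tested. Igf2 itself was at a lower level after injury than in the neonatal cells, at 191 (158 to 228) CPM against 5928 and 5332 CPM.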

How the data were processed

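Single-cell RNA was profiled by Drop-seq in 4 libraries of CD1 mouse sciatic nerve, dissociated with collagenase and trypsin: injured at 3 DPI, uninjured, neonatal FACS and neonatal beads. Libraries of 9 DPI were not analysed here. The authors made the deposited matrices of UMI counts per gene and barcode with the published Drop-seq pipeline of alignment and UMI counting, and the submitters' processing notes name mm10. No source used here gives the aligner's settings or any removal of free RNA from the counts.

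Barcodes with fewer than 200 genes or over 10% mitochondrial UMIs were dropped, sets of cells were defined by the UMI thresholds given with the results, and UMIs were summed over each set. Genes with a mean of at least 50 CPM over both sets were compared, without the genes of the rule, and a gene was called at a ratio of 2 or more or its inverse. Thinning drew 1000 UMIs per cell at random with a fixed seed and left out cells below that depth. With 1 library per group no condition was tested and no p-value was computed. Intervals are exact at the 95% level and cover counting error only. A set with 0 UMIs was given a floor of 3 UMIs. No doublet caller was run, and an alternative dropped the deepest 5% of barcodes. The comparison was tested on simulated counts.

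The rule, the marker lists and the gene lists were chosen with earlier results of these data known. Genes were named by a fixed rule: the genes of the rule, up to 6 members of each list, the 15 highest and 10 lowest ratios of each comparison, and the ligands with the highest level or share. The genes given for the signature-sum bins, the Dlk1 and Lrrc15 subsets, the excluded cells and the neonatal ratios, and further list members past 2-fold, were chosen after their values were seen. A few genes that the rule names are not reported here. Alternatives changed the filters, the thresholds and genes of the signature, the depth, the weight of cells, the scaling and the comparison cells. Those without mast cell barcodes, of at least 3000 UMIs, with the epineurial comparison, without each gene's highest cell, and with thinned left-out shares were added after the data were seen. Python 3.11.15 was used with NumPy 2.4.6, SciPy 1.17.1, pandas 2.3.3 and matplotlib 3.10.9.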

Additional observations from a re-analysis of the deposited data

Results flagged for a closer look

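Epyc, a small leucine-rich proteoglycan of cartilage, stood out because the cells that met the rule differed from the other collagen-positive cells of their library in opposite directions. Its CPM ratio was 0.102 at 3 DPI, 13.6 in neonatal FACS and 7.60 in neonatal beads. Ncam1, the neural cell adhesion molecule, did so the other way, at 2.85 at 3 DPI, 0.172 in neonatal FACS and 0.116 in neonatal beads. With 1 library per group the difference between the libraries was not tested. The comparison cells of the neonatal libraries held Mbp, a Schwann cell gene, at 6576 and 1762 CPM, against 12.9 CPM at 3 DPI, and its part in these ratios was not tested. Epyc was at 605 CPM in the endoneurial cells of 3 DPI, which the rule left out. Wif1 removed 226 cells at 3 DPI but 7 in neonatal FACS and 3 in neonatal beads. The neonatal cells that met the rule held the 4 endoneurial markers at 270 and 442 CPM, against 116 CPM in the bridge-like cells. The part of endoneurial cells in these ratios was not tested either.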

How the results depend on the processing

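With 1 library per group every value describes that library, and depth limits it: the signature is sparse, and a cell without a signature UMI is not shown to lack the gene. No paired analysis was possible because each group has 1 library.

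The share of cells that met the rule moved with most thresholds. At 3 DPI, in neonatal FACS and in neonatal beads it was 15.6%, 48.7% and 23.9% with at least 500 genes, and 15.8%, 56.9% and 41.0% with a collagen sum of at least 10. In the order 3 DPI, uninjured, neonatal FACS, neonatal beads it was 18.4%, 5.54%, 47.5% and 25.5% with a signature sum of at least 2 and 6.20%, 0.923%, 36.4% and 16.0% with at least 5. Thinned to 1000 UMIs before the choice it was 4.59%, 0.767%, 36.4% and 24.4%, and among cells of at least 3000 UMIs 30.3%, 3.33%, 71.1% and 66.9%. Without Tgfb3 it was 7.81% at 3 DPI and 1.03% uninjured, and without Dlk1 10.2% at 3 DPI, 6.02% in neonatal FACS and 1.18% in neonatal beads. Without the deepest 5% of barcodes the neonatal bead library had 19.05%. The share at 3 DPI was above the uninjured share under each of these settings.

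Counts of genes past 2-fold moved most at low counts per gene. Against the other cells, 92 were higher and 197 lower with a signature sum of at least 5, 206 and 267 with cells thinned after the choice, 598 and 374 with cells thinned before it, 129 and 351 at a mean CPM of at least 20, and 148 and 248 against the epineurial cells, while the mean of each cell's CPM gave 89 higher. Against endoneurial cells there were 335 and 351 thinned after the choice, 823 and 529 thinned before it and 437 and 465 at a mean CPM of at least 20. Against uninjured cells, 1010 were higher when thinned before the choice, and 828 and 681 were higher and lower at a mean CPM of at least 20. The left-out gaps at equal depth were 5.36 points for Dlk1, 2.29 for Lrrc15, 7.57 for C1qtnf3, 1.62 for Wnt9a, 2.16 for Hs6st2 and 9.84 for Tgfb3. The causes of these shifts were not tested.

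Among the genes chosen by the naming rule or after their values were seen, 3298 values were within the counting interval of the main ratio, 787 were outside it, and 45 of called genes turned direction. Of 205 calls past 2-fold, 84 ended under at least 1 setting, which took 231 of 3613 values. Most of those that turned direction were mast cell genes, listed here as log2 ratios. Without the mast cell barcodes, Mcpt4, Cpa3, Tpsb2 and Cma1 were at -0.26, -1.45, -0.45 and -0.13 against the other cells and at -0.96, -1.15, -1.40 and -0.58 against uninjured cells, and Cpa3, Tpsb2 and Cma1 at -0.49, -0.49 and -1.04 against endoneurial cells. With a signature sum of at least 5 they were at -1.29, -3.95, -0.79 and -2.44 against the other cells, with Cma1 at -0.53 against endoneurial and -0.076 against uninjured cells and Cpa3 at -0.32 against uninjured cells. With a collagen sum of at least 10, Cpa3 was at -0.20, -0.52 and -0.97 against other, endoneurial and uninjured cells, and Cma1 at -0.81 and -0.19 against endoneurial and uninjured cells. Among cells of at least 3000 UMIs, Cpa3 was at -0.15, -0.54 and -0.75 in the same order and Cma1 at -0.024 and -0.77 against other and endoneurial cells. Without the cell with the most UMIs of the gene, Cpa3 was at -1.46, -0.50 and -1.16 and Cma1 at -0.79 and -0.33 against endoneurial and uninjured cells. Of the rest, Comp against endoneurial cells was at -0.66 with a signature sum of at least 5 and -0.52 without Tgfb3, and Fhl2 at -0.43 thinned before the choice. Against the other cells, Gap43 was at -0.19 thinned after and -0.43 thinned before the choice, and Ccl6 and Pf4 at 0.080 and 0.35 thinned before it. Against the epineurial cells, Rgs5, Sfrp5, Spp1 and Col18a1 were at 1.54, 0.18, 0.039 and 0.052. Mdk was at -0.16 against uninjured cells with cells thinned after the choice.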
